A study of Homo sapiens with 4 samples.

Results

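The clustered protocadherins are cadherin-like adhesion proteins encoded side by side on the long arm of chromosome 5 in an alpha, a beta and a gamma cluster. Members were taken as the genes whose name starts with PCDHA, PCDHB or PCDHG, and 58 names met this. The 4 that end in P, as pseudogene names do, were left out (PCDHB17P, PCDHB18P, PCDHB19P and PCDHGB8P). The 54 members, of 58174 genes in the table, comprise 16 alpha, 16 beta and 22 gamma genes. The gamma genes divide into 12 of type A, 7 of type B and 3 of the C type, and the alpha cluster has 2 of the C type, PCDHAC1 and PCDHAC2. One member kept by the name rule, PCDHA14, is annotated as a pseudogene in GENCODE release 29.

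Each alpha or gamma gene has its own promoter and its own large first exon, which encodes the extracellular cadherin repeats, the membrane span and the start of the cytoplasmic tail. That variable exon is spliced to a small set of constant exons that all genes of the cluster use. Beta genes have 1 large exon and no constant exons. In neurons, a combination of promoters is chosen in each cell, with CTCF and cohesin looping an active promoter to a distant enhancer. The proteins recognise the same isoform on a facing cell and are best known for the self-avoidance of neurites.

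The study asked how gene expression differs when CDH3, which encodes P-cadherin, is transiently knocked down in lung cancer cells. Total RNA was sequenced from H1299 and HCC827, established human lung cancer lines. Each was treated for 48 h with a control siRNA (siCTR) or an siRNA against CDH3 (siCDH3), which gives 4 libraries and 1 per group. Expression is in TPM, the usual length-scaled measure of transcript abundance, whose sum is fixed in each library. On the siRNA sequences and the number of cultures behind a library, nothing is given in the sources used here. A difference between H1299 and HCC827 is one between these 2 lines, not between types of tumour.

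CDH3 was at 1.21 TPM in the H1299 siCTR library and at 0.169 TPM in the H1299 siCDH3 library. In HCC827 it was at 173 and 78.8 TPM. The siCDH3 libraries thus held 14.0% and 45.6% of the siCTR level. In H1299, CDH3 was already near 1 TPM in the siCTR library, so the 14.0% rests on low levels. As a log2 ratio of TPM + 1, the scale used for members below, CDH3 was at -0.92 in H1299, inside the 2-fold limit, and at -1.12 in HCC827. Per library, between 15015 and 15480 genes reached 1 TPM. Mitochondrial transcripts took 13.5% and 16.4% of the TPM in H1299 (siCTR, siCDH3) and 36.2% and 34.4% in HCC827. Of 11 lung and airway epithelial markers, 3 reached 5 TPM in each H1299 library and 8 in each HCC827 library. Of 12 neuronal and neuroendocrine markers, 6 reached 1 TPM in each H1299 library and 2 in each HCC827 library. Their summed TPM was 157.4 and 189.2 in H1299 and 24.3 and 22.9 in HCC827. TUBB3 (63.2 and 61.1 TPM), MAP2 (30.7 and 22.5), SNAP25 (20.9 and 18.1) and SYT1 (20.9 and 15.5) were well expressed in H1299, while RBFOX3, STMN2 and NCAM1 stayed under 1 TPM in every library. The part of these differences in the protocadherin levels was not tested. In bulk RNA, fewer cells of a type and less RNA per cell cannot be told apart.

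The shared constant exons bear on every alpha and gamma value, and the splice junctions show why. Each sequence below runs 5′ to 3′ on the + strand of GRCh38, from GENCODE release 29. It joins the last 20 bases of a variable exon, in lower case, to the first 20 bases of the constant exon, in capitals. They are given for the members whose levels the results turn on.
PCDHA11: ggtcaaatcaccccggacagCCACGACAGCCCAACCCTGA
PCDHAC1: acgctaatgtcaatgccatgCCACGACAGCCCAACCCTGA
PCDHAC2: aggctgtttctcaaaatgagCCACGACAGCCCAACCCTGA
PCDHGA3: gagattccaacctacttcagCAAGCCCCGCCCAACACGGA
PCDHGA6: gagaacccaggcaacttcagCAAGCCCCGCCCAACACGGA
PCDHGA10: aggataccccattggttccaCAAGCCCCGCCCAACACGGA
PCDHGC3: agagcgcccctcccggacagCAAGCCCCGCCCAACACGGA
PCDHGC5: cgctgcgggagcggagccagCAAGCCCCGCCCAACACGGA
The variable part of PCDHAC2 lies at chr5:140969312-140969331 and the alpha constant part at chr5:140978949-140978968. The variable part of PCDHGA3 lies at chr5:141346438-141346457, that of PCDHGA6 at chr5:141376488-141376507 and that of PCDHGC3 at chr5:141478527-141478546. The gamma constant part lies at chr5:141494807-141494826.

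All 15 protein-coding alpha genes join to 1 identical constant part and all 22 gamma genes to another, while the variable parts all differ. A read that falls wholly in the constant exons carries no letter that tells which first exon it was spliced to. In the annotation, shared exonic bases make up 21.3% to 56.6% of a protein-coding alpha gene (median 46.5%). In the gamma genes they make up 27.6% to 64.4% (median 43.9%), with 44.7% in PCDHGA3, 27.6% in PCDHGA6 and 40.2% in PCDHGC3. No beta gene shares an exonic base with another member. Beta genes are still alike in sequence: a median of 13.5% of their 50-base stretches occur in another member, from 0% to 45.7% (PCDHB8). How the authors divided reads among genes that share exons or sequence was not given in the sources used here, and its effect on single members was not tested. Cluster sums are therefore printed beside single genes.

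Clustered protocadherin promoters are known for a conserved element with the core CGCT. In RefSeq (GRCh38.p14), 47 of the 54 members have a promoter window of 300 bases, and some have more than 1, for 52 windows in all. CGCT, on either strand, was in 51 of the 52 windows (98.1%), against 24584 of 35116 (70.0%) of all promoter windows. Below are 36 bases of the + strand from 8 of them, chosen for the members described later or to show each cluster's form, with the CGCT core in capitals.
PCDHA1: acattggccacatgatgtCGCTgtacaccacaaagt
PCDHA6: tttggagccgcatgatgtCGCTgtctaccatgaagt
PCDHB2: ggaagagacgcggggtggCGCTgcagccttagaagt
PCDHB5: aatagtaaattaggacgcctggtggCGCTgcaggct
PCDHB12: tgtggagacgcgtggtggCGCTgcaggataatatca
PCDHGA3: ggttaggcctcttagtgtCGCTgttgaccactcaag
PCDHGA6: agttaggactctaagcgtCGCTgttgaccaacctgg
PCDHGA10: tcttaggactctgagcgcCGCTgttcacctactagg
The stretch of PCDHB2 is chr5:141094542-141094577, that of PCDHB5 chr5:141135170-141135205, that of PCDHGA3 chr5:141343765-141343800 and that of PCDHGA6 chr5:141373833-141373868. The letters around the core differ by cluster in these lines. Extended forms chosen after the windows were seen were then counted on both strands. TGGCGCT was in 13 of 14 beta genes, 0 of 13 alpha genes and 3 of 20 gamma genes, and in 4.08% of all windows. TGTCGCT was in 10 of 13 alpha genes, 1 beta gene and 3 gamma genes, and in 1.76% of all windows. CGCTGTT was in 13 of 20 gamma genes, 0 alpha genes and 1 beta gene, and in 2.26% of all windows. These forms overlap in the core, and a match is a description of letters, not a bound site. Members with very different levels carry the same form, as PCDHB2, PCDHB5 and PCDHB12 do.

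All members together held 149.9 TPM in the H1299 siCTR library and 180.2 TPM in the H1299 siCDH3 library, and 70.1 and 72.2 TPM in those of HCC827. Expression was sparse in both lines. Of the 54 members, 34 reached 1 TPM in at least 1 library, 9 reached 5 TPM in at least 1, and 9 reached 1 TPM in all 4. The other 20 stayed under 1 TPM everywhere: 7 alpha, 5 beta and 8 gamma genes. The lowest of these was PCDHB1, the first beta gene in genomic order, which never exceeded 0.00883 TPM. Depth cannot be read from TPM, so the precision of such low levels is unknown.

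**Figure D1:**
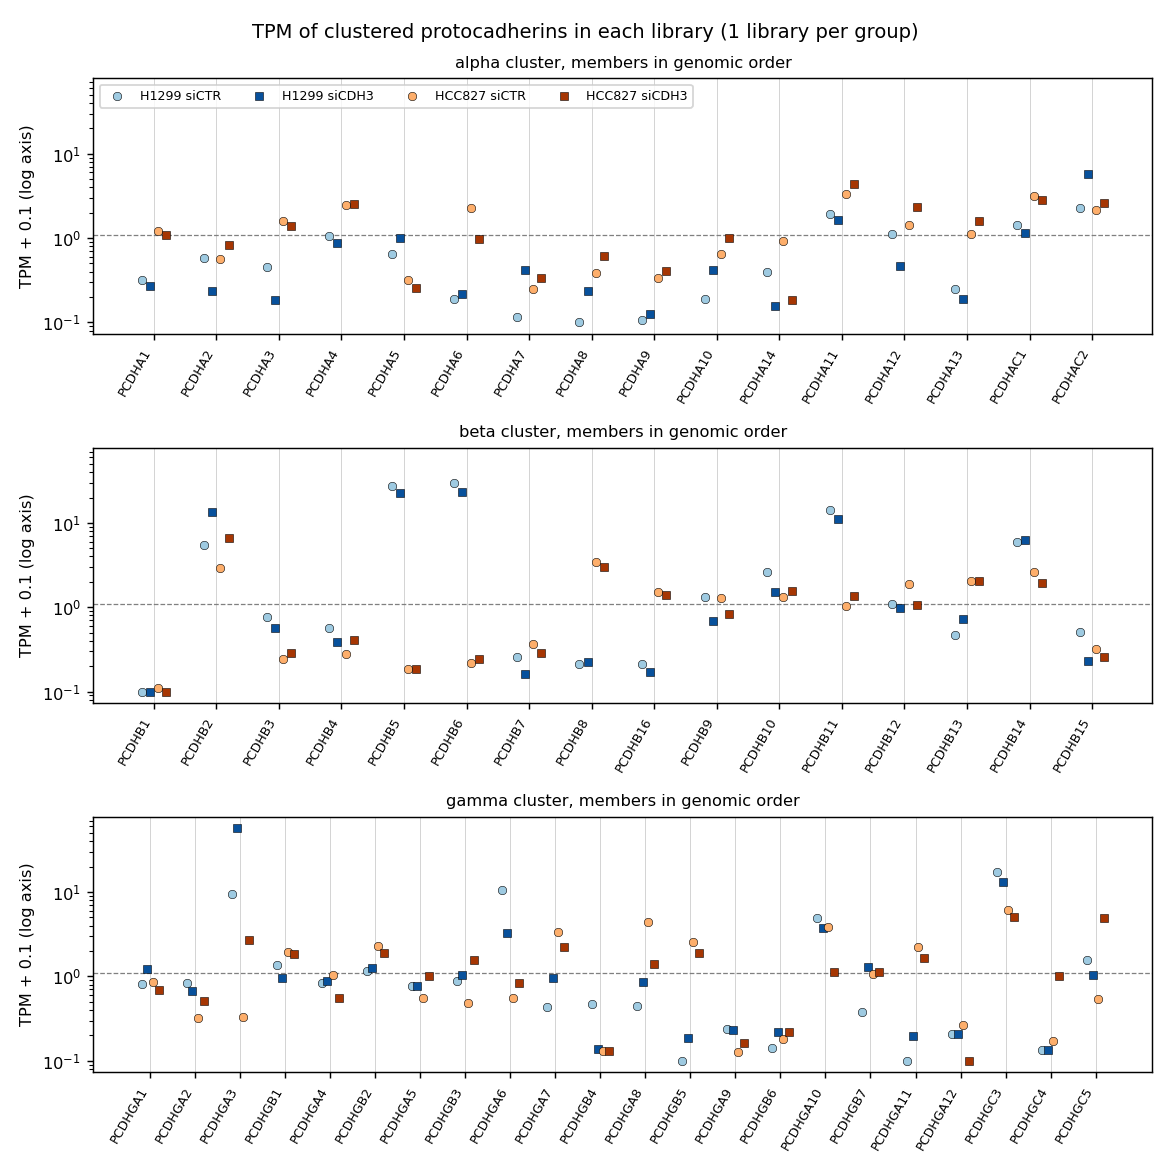
Level of each of the 54 members in genomic order within the alpha, beta and gamma clusters, as TPM + 0.1 on a log axis, with 1 point for each of the 4 libraries and a dashed line at 1 TPM. PCDHB5 and PCDHB6 stand near 23 to 30 TPM in both H1299 libraries and under 0.15 TPM in both HCC827 libraries, and PCDHGA3 reaches 56.8 TPM in the H1299 siCDH3 library.

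Over all members, the order of levels was more alike within a line than between lines. Across the 54 members, Spearman's rho between the 2 libraries of a line was 0.865 in H1299 and 0.793 in HCC827. Between libraries of different lines it ran from 0.228 to 0.423. The contrast was sharpest in the beta cluster, where rho over its 16 genes was 0.944 and 0.953 within a line and -0.1 to 0.138 between lines. In the gamma cluster rho was 0.818 in H1299 and 0.645 in HCC827, and 0.234 to 0.482 between lines. In the alpha cluster the contrast was weak, with 0.718 in H1299, 0.85 in HCC827 and 0.403 to 0.671 between lines. These correlations are descriptions across genes that share a library and, in the alpha and gamma clusters, exons.

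The alpha cluster was the weakest in H1299, with a summed 9.58 TPM (siCTR) and 11.7 TPM (siCDH3). In HCC827 it summed to 20.7 and 21.8 TPM, so that HCC827 was 2.16-fold higher between siCTR libraries and 1.86-fold higher between siCDH3 libraries. Put as H1299 over HCC827, these are 0.463-fold and 0.538-fold. With TPM over nuclear protein-coding genes, which leaves out PCDHA14, they were 0.340-fold and 0.420-fold. The number of alpha genes at 1 TPM or more was 4 and 3 in the H1299 libraries and 9 and 8 in those of HCC827. PCDHA11 had the highest alpha level in both HCC827 libraries, at 3.27 TPM (siCTR) and 4.26 TPM (siCDH3), and was at 1.85 and 1.55 TPM in H1299. PCDHAC1, a C-type gene, was at 1.32 and 1.06 TPM in H1299 and at 3.06 and 2.70 TPM in HCC827. PCDHA4 was at 0.972 and 0.785 TPM in H1299 and at 2.33 and 2.47 TPM in HCC827. For these genes both HCC827 libraries lay above both H1299 libraries. PCDHA4 reached 1 TPM in HCC827 alone, which favours this. The share of all genes without overlap between the lines was not counted, so this is a description only. The line test given later, a different measure, called 58.8% of all genes tested.

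Several other alpha genes passed the level of 1 TPM only in HCC827. PCDHA6 was at 0.0900 and 0.115 TPM in H1299 and at 2.19 (siCTR) and 0.882 TPM (siCDH3) in HCC827. PCDHA3 was at 0.350 and 0.0865 TPM in H1299 and at 1.51 and 1.29 TPM in HCC827. PCDHA13 was at 0.150 and 0.0874 TPM in H1299 and at 1.03 and 1.5 TPM in HCC827, and PCDHA1 was at 0.216 and 0.172 against 1.12 and 1.0 TPM. The H1299 and HCC827 levels of these 4 genes do not overlap, but they were grouped by passing 1 TPM in HCC827 alone, which favours this. PCDHA12, at 1.02 and 0.362 TPM in H1299 and 1.35 and 2.24 TPM in HCC827, lay closer together. The remaining 7 alpha genes (PCDHA2, PCDHA5, PCDHA7, PCDHA8, PCDHA9, PCDHA10 and PCDHA14) had their highest levels between 0.306 and 0.900 TPM. Among these, PCDHA5 had the opposite order of lines, at 0.540 and 0.894 TPM in H1299 and 0.218 and 0.158 TPM in HCC827, and PCDHA2, PCDHA7 and PCDHA14 overlapped between the lines. Every exonic base of the annotated pseudogene PCDHA14 also belongs to another member.

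PCDHAC2, the C-type gene nearest the alpha constant exons, did not share the order of lines of the alpha sum. It was at 2.18 TPM in the H1299 siCTR library, 5.62 TPM in the H1299 siCDH3 library, and 2.06 and 2.51 TPM in HCC827. The H1299 siCDH3 library stood apart from the other 3, which lay within 2.06 to 2.51 TPM. PCDHAC2 made up 22.7% of the alpha sum in the H1299 siCTR library and 47.9% in the siCDH3 library, and 9.94% and 11.5% in HCC827. Without the 2 C-type genes the alpha sum was 6.08 and 5.04 TPM in H1299 and 15.6 and 16.6 TPM in HCC827.

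In the beta cluster the order of the lines was the opposite. Its sum was 89.2 TPM (siCTR) and 81.3 TPM (siCDH3) in H1299, and 18.2 and 19.97 TPM in HCC827. H1299 was thus 4.90-fold higher between siCTR libraries and 4.07-fold higher between siCDH3 libraries. With TPM over nuclear protein-coding genes these were 3.56-fold and 3.18-fold. The number of genes at 1 TPM or more hardly differed, at 7 and 6 in H1299 and 8 and 7 in HCC827. The difference in the sum came from 3 genes. PCDHB6 was at 29.8 and 23.2 TPM in H1299 and at 0.119 and 0.147 TPM in HCC827. PCDHB5, its neighbour in the genome, was at 27.1 and 22.8 TPM in H1299 and at 0.0834 and 0.0858 TPM in HCC827. PCDHB11 was at 14.1 and 10.9 TPM in H1299 and at 0.932 and 1.26 TPM in HCC827. Together these 3 summed to 71.0 and 57.0 TPM in H1299 and to 1.13 and 1.49 TPM in HCC827, a 62.5-fold difference between siCTR libraries and a 38.3-fold difference between siCDH3 libraries.

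The pseudogene PCDHB17P, which follows PCDHB6 in the genome and is no member, had the same order of lines, at 1.51 and 0.840 TPM in H1299 and 0.0453 and 0.0288 TPM in HCC827. The antisense transcripts that overlap members were at most at 1.06 TPM, in the H1299 siCTR library for AC244517.11, which overlaps PCDHB5 and PCDHB15. Whether the reads were counted by strand was not given in the sources used here, so reads of overlapping antisense genes may not be separable from those of these members.

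Other beta genes were expressed in both lines or mainly in HCC827. PCDHB14 was at 5.92 and 6.12 TPM in H1299 and at 2.54 and 1.83 TPM in HCC827. PCDHB2 was at 5.31 (siCTR) and 13.5 TPM (siCDH3) in H1299 and at 2.79 and 6.56 TPM in HCC827, so its HCC827 siCDH3 level lay above its H1299 siCTR level. PCDHB8 was at 0.110 and 0.126 TPM in H1299 and at 3.32 and 2.87 TPM in HCC827, the reverse of PCDHB5 and PCDHB6 in the same stretch of the cluster. PCDHB16 went the same way at 0.112 and 0.0710 against 1.44 and 1.28 TPM, as did PCDHB13 at 0.364 and 0.617 against 1.95 and 1.93 TPM. PCDHB8 shares 45.7% of its 50-base stretches with other members, so its level is less certain than that of PCDHB5 (12.2%), PCDHB6 (13.9%) or PCDHB11 (14.0%).

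PCDHB10, at 2.54 and 1.40 TPM in H1299 and 1.24 and 1.48 TPM in HCC827, overlapped between the lines. So did PCDHB12, at 0.990 and 0.885 against 1.79 and 0.958 TPM, and PCDHB9, at 1.24 and 0.596 against 1.19 and 0.733 TPM. The other 5 beta genes, PCDHB1, PCDHB3, PCDHB4, PCDHB7 and PCDHB15, stayed at or under 0.656 TPM.

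The gamma cluster summed to 51.1 TPM (siCTR) and 87.1 TPM (siCDH3) in H1299 and to 31.2 and 30.4 TPM in HCC827. H1299 was 1.64-fold higher between siCTR libraries and 2.86-fold higher between siCDH3 libraries, or 1.19-fold and 2.24-fold with TPM over nuclear protein-coding genes. Most of the distance between the 2 H1299 libraries lay in PCDHGA3. It was at 9.45 TPM (siCTR) and 56.8 TPM (siCDH3) in H1299, and at 0.227 and 2.61 TPM in HCC827. PCDHGA3 was 18.5% and 65.2% of the gamma sum in H1299 and 0.729% and 8.56% in HCC827. Without it the gamma sum was 41.6 and 30.3 TPM in H1299 and 30.99 and 27.8 TPM in HCC827, so that the H1299 siCDH3 library was then the lower of the 2.

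**Figure D2:**
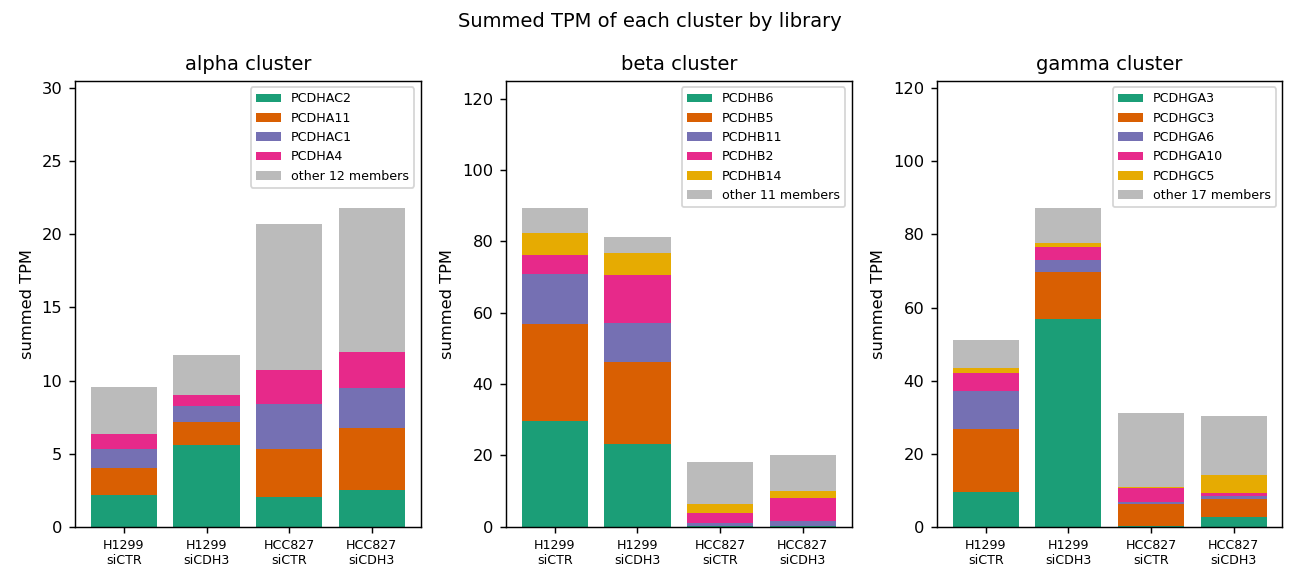
Summed TPM of the alpha, beta and gamma clusters in each of the 4 libraries, 1 stacked bar per library, with the leading members in colour and all others in grey. The beta sum is 89.2 and 81.3 TPM in H1299 against 18.2 and 19.97 TPM in HCC827, and PCDHGA3 fills 65.2% of the gamma bar of the H1299 siCDH3 library.

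PCDHGC3, a C-type gene, was expressed in all libraries, at 17.2 and 13.03 TPM in H1299 and at 6.02 and 4.98 TPM in HCC827. PCDHGC3 had the highest gamma level in the H1299 siCTR library and in both HCC827 libraries. PCDHGA6 was at 10.5 (siCTR) and 3.19 TPM (siCDH3) in H1299 and at 0.457 and 0.730 TPM in HCC827. PCDHGA10 was at 4.78 and 3.65 TPM in H1299 and at 3.77 (siCTR) and 1.04 TPM (siCDH3) in HCC827, where the siCDH3 library was the only 1 of 4 under 3.65 TPM. PCDHGC5, another C-type gene, was at 1.48 and 0.929 TPM in H1299 and at 0.445 (siCTR) and 4.78 TPM (siCDH3) in HCC827, and again 1 library stood apart. PCDHGC4 lies between these C-type genes in the cluster and stayed under 1 TPM, with its highest level, 0.910 TPM, in that same HCC827 siCDH3 library.

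Another set of gamma genes was under 1 TPM in both H1299 libraries and above it in both of HCC827. PCDHGB5 was listed at 0 and at 0.0859 TPM in H1299 and at 2.47 and 1.81 TPM in HCC827. PCDHGA11 was listed at 0 and at 0.0956 TPM in H1299 and at 2.10 and 1.53 TPM in HCC827. PCDHGA7 was at 0.335 and 0.846 TPM in H1299 and at 3.29 and 2.15 TPM in HCC827. PCDHGA8 was at 0.348 and 0.763 TPM in H1299 and at 4.28 (siCTR) and 1.30 TPM (siCDH3) in HCC827. These 4 were grouped by these levels, so the lack of overlap between the lines follows from the choice. PCDHGB2 (1.07 and 1.15 against 2.20 and 1.79 TPM) and PCDHGB1 (1.26 and 0.863 against 1.86 and 1.75 TPM) also had both HCC827 libraries above both H1299 libraries, with smaller gaps. The share of all genes with such an order was not counted. PCDHGB3, at 0.777 and 0.953 TPM in H1299 and 0.380 and 1.45 TPM in HCC827, overlapped between the lines. PCDHGB7 and PCDHGA1 overlapped as well and peaked at 1.20 and 1.12 TPM, both in the H1299 siCDH3 library. The other 8 gamma genes, PCDHGC4 included, peaked between 0.122 and 0.936 TPM.

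By type, gamma A genes summed to 28.5 and 68.8 TPM in H1299 and to 16.7 and 11.8 TPM in HCC827. Gamma B genes summed to 3.80 and 4.40 TPM in H1299 and to 8.003 and 7.989 TPM in HCC827. The 3 C-type genes summed to 18.8 and 14.0 TPM in H1299 and to 6.54 and 10.7 TPM in HCC827. Gamma B genes were thus the only gamma type with a higher sum in HCC827 in both siRNA groups. The 3 highest genes of a cluster held 79.5% and 73.3% of the beta sum in H1299 and 47.5% and 56.9% in HCC827. For gamma the shares were 72.8% and 84.3% against 45.1% and 40.6%. For alpha they were 55.9% and 70.2% against 41.9% and 43.5%. In all 3 clusters expression was concentrated on fewer genes in H1299.

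The line difference was tested with limma on log2(TPM + 1), with the siRNA in the model and the 2 libraries of a line as its replicates, on all 18049 genes with at least 1 TPM in at least 1 library. At a Benjamini-Hochberg adjusted p under 0.05, 58.8% of all genes tested were called (37.4% higher in H1299 and 21.4% higher in HCC827), with a median log2 difference, HCC827 minus H1299, of -0.27. This balance depended on the scaling. Over nuclear protein-coding genes alone, which leaves out the mitochondrial transcripts that take more of the HCC827 libraries, 3754 of 14199 genes were higher in H1299 and 4685 in HCC827, and the median was 0.11. Of the 34 members tested, 21 were called, 13 higher in HCC827 and 8 higher in H1299 (18 and 8 over nuclear protein-coding genes), a share near that of all genes. Of these 34, 18 reached 1 TPM in 1 line alone, where the filter itself favours a difference, and their calls support nothing. Among the 16 that passed in both lines, 2 were higher in HCC827 (PCDHA11 and PCDHAC1) and 5 in H1299 (PCDHB11, PCDHB2, PCDHB14, PCDHGA3 and PCDHGC3). No call of a member turned its direction under either of the 2 other scalings.

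Among the members that reached 1 TPM in both lines, PCDHGA3 lay furthest apart, lower in HCC827 with a log2 difference of -3.55 ± 0.27 (SE; limma adjusted p = 0.00063). PCDHB11 had -2.69 ± 0.21 (limma adjusted p = 0.000695), PCDHGC3 -1.30 ± 0.17 (0.00293) and PCDHB14 -1.15 ± 0.18 (0.00576). PCDHB2 had -0.84 ± 0.17 (limma adjusted p = 0.0121), but it lost this call when the siRNA was left out of the model (limma adjusted p = 0.235). Higher in HCC827 were PCDHAC1, by 0.82 ± 0.16 (limma adjusted p = 0.0112), and PCDHA11, by 0.81 ± 0.19 (0.02). PCDHA11 lost its call with no filter on low values (limma adjusted p = 0.063). PCDHAC2, at -0.48 ± 0.25 (limma adjusted p = 0.162), and PCDHA12, at 0.73 ± 0.29 (0.0821), did not pass, nor did PCDHGB2, PCDHGA10 and PCDHGC5, with limma adjusted p-values of 0.0571, 0.0663 and 0.567.

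For members that reached 1 TPM in 1 line alone, the filter favoured that line, so their log2 differences (HCC827 minus H1299) are given as a description with no test. PCDHGB3, which reached 1 TPM in HCC827 alone, had -0.02, and all the others went the way the filter favours. The differences were -4.59 for PCDHB6, -4.58 for PCDHB5 and -2.13 for PCDHGA6, which reached the level in H1299 alone. They were 1.87 for PCDHB8, 1.59 for PCDHGB5, 1.42 for PCDHGA11, 1.23 for PCDHGA7 and 0.86 for PCDHA4, which reached it in HCC827 alone.

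**Figure D3:**
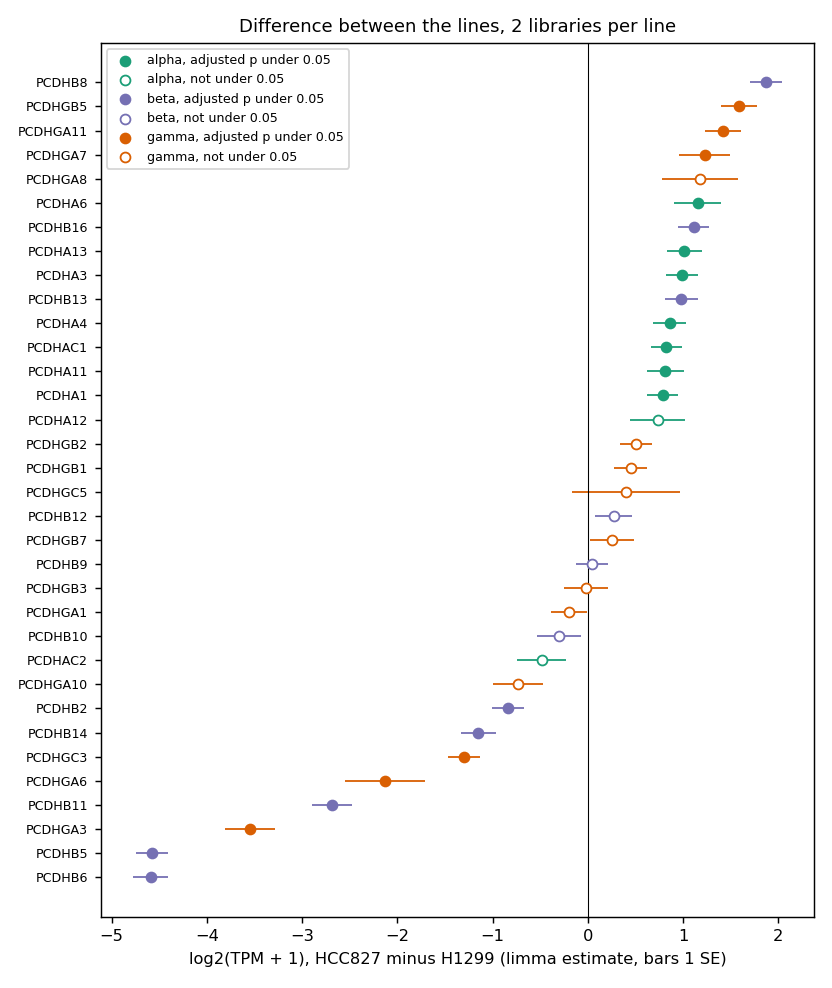
Difference between the lines for the tested members, as the limma log2 difference of TPM + 1 (HCC827 minus H1299) with bars of 1 standard error, coloured by cluster and filled where the adjusted p is under 0.05. Points right of 0 are higher in HCC827. Members that reached 1 TPM in 1 line alone are included, and where these are filled the call supports nothing. PCDHB6 and PCDHB5, furthest left at -4.59 and -4.58, and PCDHB8, furthest right at 1.87, are such members. Among members that reached 1 TPM in both lines, PCDHGA3 lies furthest left at -3.55 and PCDHAC1 furthest right at 0.82.

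The siCDH3 and siCTR libraries of a line were compared by the log2 ratio of TPM + 1, for members with at least 1 TPM in at least 1 of the 2. This scale understates the change of low genes. With 1 library per group there is no replicate check, and a ratio compares 2 libraries. Of 20 members compared in H1299, 3 were at least 2-fold higher in the siCDH3 library (PCDHGA3, PCDHB2 and PCDHAC2), against 1.41% of 16115 genes. One, PCDHGA6, was at least 2-fold lower, against 1.91% of all genes. In either direction this is 4 of 20 members, beside 3.33% of all genes. The median log2 ratio was -0.26 over the 20 members and -0.10 over all genes. In the same H1299 siCDH3 library, the neuroendocrine markers SYP (from 4.18 to 13.6 TPM) and CHGB (from 16.5 to 56.9 TPM) were past 2-fold higher as well. The other 4 neuronal and neuroendocrine markers compared there had log2 ratios below 0 (MAP2 -0.43, SYT1 -0.41, SNAP25 -0.20 and TUBB3 -0.05), and the median of the 6 was -0.12. The part of these markers in the member ratios was not tested.

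In HCC827, 30 members were compared, and 2 were at least 2-fold higher (PCDHGA3 and PCDHGC5), against 1.24% of 15598 genes. Another 2, PCDHGA8 and PCDHGA10, were at least 2-fold lower, against 1.15% of all genes. In either direction this is 4 of 30 members, beside 2.39% of all genes. The median log2 ratio was -0.09 over the 30 members and 0.02 over all genes. Of the 7 members past 2-fold in a line, 5 are gamma genes, and PCDHGA3 alone was past it in both lines. By cluster, 25% of 4 alpha, 14.3% of 7 beta and 22.2% of 9 gamma genes compared were past it in H1299. In HCC827 these shares were 0% of 9 alpha, 0% of 9 beta and 33.3% of 12 gamma genes. Members that share exons are not independent items in these counts.

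PCDHGA3 had the furthest ratio in H1299 and was higher in the siCDH3 library of both lines. Its log2 ratio was 2.47 in H1299, from 9.45 to 56.8 TPM (6.01-fold in TPM), and 1.55 in HCC827, from 0.227 to 2.61 TPM (11.5-fold in TPM). PCDHGA6, a nearby type A gene with the same constant exons, went the other way in H1299 at -1.46, from 10.5 to 3.19 TPM, and was at 0.25 in HCC827. PCDHGC3 had log2 ratios of -0.38 and -0.23.

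PCDHB2 was 2.55-fold higher in TPM in the H1299 siCDH3 library and 2.35-fold higher in that of HCC827. On the TPM + 1 scale its log2 ratios were 1.20 and 0.99, so that in HCC827 it lay just inside the 2-fold limit. It shares no exonic base with another member. The 3 beta genes that dominate H1299 went slightly the other way there, with log2 ratios of -0.34 (PCDHB6), -0.24 (PCDHB5) and -0.34 (PCDHB11). PCDHB14 was at 0.04 and -0.32. No beta gene was past 2-fold on the TPM + 1 scale in HCC827. The beta sum differed by 0.911-fold in H1299 and 1.10-fold in HCC827.

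PCDHAC2 was 2.58-fold higher in TPM in the H1299 siCDH3 library (log2 ratio 1.06) and 1.22-fold in HCC827 (0.20). On the TPM + 1 scale, no other alpha gene compared was past 2-fold in either line. PCDHA6 came nearest, at -0.76 in HCC827, followed by PCDHA12, at -0.57 in H1299 and 0.46 in HCC827. In TPM, however, both were past 2-fold lower with siCDH3, at 0.402-fold (PCDHA6 in HCC827) and 0.354-fold (PCDHA12 in H1299). PCDHAC1 was at -0.17 and -0.14. The alpha sum differed by 1.22-fold in H1299 and 1.05-fold in HCC827.

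In HCC827, PCDHGC5 was 10.7-fold higher in TPM in the siCDH3 library (log2 ratio 2.0), from 0.445 to 4.78 TPM, and in H1299 its log2 ratio was -0.36. For PCDHGA10 the log2 ratios were -0.31 (H1299) and -1.22 (HCC827), and for PCDHGA8 they were 0.39 and -1.19. PCDHGB3, at 0.83 in HCC827, and PCDHGB7, at 0.78 in H1299, stayed inside the limit on the TPM + 1 scale. In TPM they were 3.81-fold and 4.28-fold higher there. The gamma sum differed by 1.71-fold in H1299 and 0.975-fold in HCC827, and by 0.728-fold and 0.898-fold without PCDHGA3.

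**Figure D4:**
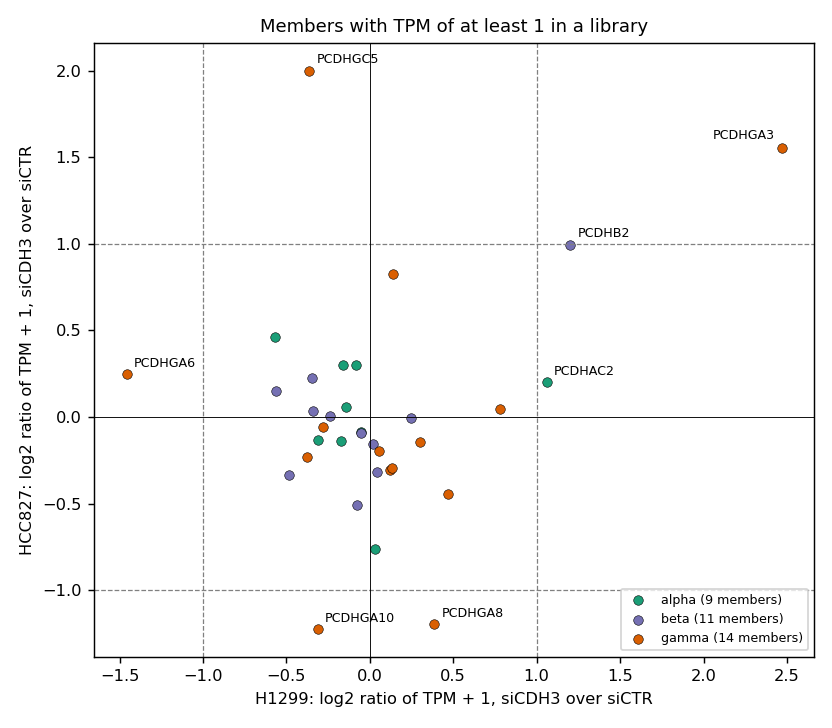
Log2 ratio of TPM + 1, siCDH3 over siCTR, in H1299 (x axis) and HCC827 (y axis) for each member with at least 1 TPM in a library, coloured by cluster, with lines at the 2-fold limit. PCDHGA3 lies past the limit in both lines (2.47 and 1.55), PCDHB2 at 1.20 and 0.99, and PCDHGC5 is high in HCC827 alone (2.0).

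Over both lines, the siRNA term was tested in the same limma fit, with the cell line as a block and the line as the unit of replication. One gene of 18049 (0.00554%) passed an adjusted p under 0.05, TNFRSF6B, a decoy receptor gene that was lower with siCDH3. None of the 34 members passed (0 by limma, 3 at an unadjusted p under 0.05, beside 767 of all genes). PCDHGA3 had the lowest value among members, with a log2 difference of 2.01 (limma unadjusted p = 0.00077, adjusted p = 0.689). PCDHB2 followed with 1.10 (limma unadjusted p = 0.00155, adjusted p = 0.766), and PCDHGA10 had a limma unadjusted p of 0.0354 (adjusted p = 0.963). Each of these 3 had the same sign in both lines. The test rests on 1 residual degree of freedom per gene, and a p that misses the threshold does not show that the levels were alike.

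Genes outside the clusters that belong to the same superfamily were taken as a list of 21 non-clustered protocadherins and giant cadherins. None was past 2-fold in either line, of 9 compared in H1299 and 6 in HCC827, with median log2 ratios of -0.10 and -0.06. FAT1, a giant cadherin, was at 33.7 and 33.9 TPM in H1299 and at 37.7 and 48.2 TPM in HCC827, so its level in HCC827 was higher than that of any clustered member there. CELSR3, a cadherin with a receptor-like membrane part, was at 10.1 and 15.8 TPM in H1299 and at 7.69 and 12.96 TPM in HCC827, with log2 ratios of 0.60 and 0.68. PCDH1 was at 2.92 and 3.84 TPM in H1299 and at 13.9 and 14.0 TPM in HCC827. PCDH18 was at 5.45 and 2.83 TPM in H1299 and listed at 0 in both HCC827 libraries. For the line term, limma called 2 of the list higher in HCC827 and 4 higher in H1299, and 3 and 6 over nuclear protein-coding genes. Of all genes, 21.4% and 37.4% were called, and 33% and 26.4% over nuclear protein-coding genes. Among those higher in H1299, PCDH10, PCDH18 and FAT4 reached 1 TPM in H1299 alone, so their calls support nothing.

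A list of 19 genes covered the factors known to act in protocadherin promoter choice and silencing. All 19 were compared in both lines and none was past 2-fold, with median log2 ratios of -0.29 (H1299) and 0.01 (HCC827). CTCF, the DNA-binding protein of the promoter element, was at 32.2 and 25.9 TPM in H1299 and at 30.3 and 28.3 TPM in HCC827. RAD21, a cohesin subunit, was at 152.9 and 125.1 TPM in H1299 and at 57.8 and 59.3 TPM in HCC827. The log2 ratios of the cohesin subunit SMC1A were -0.88 (H1299) and -0.15 (HCC827), and those of REST, a repressor of neuronal genes, were -0.86 and -0.29. ZNF143, a zinc finger protein found at chromatin loops, was at 0.82 and -0.35. SMCHD1, which takes part in silencing the clusters, was at 33.0 and 26.6 TPM in H1299 and at 11.5 and 12.1 TPM in HCC827. For the line term, limma called 3 of the 19 higher in HCC827 and 8 higher in H1299, and 5 and 4 over nuclear protein-coding genes. The shares over all genes were 21.4% and 37.4%, and 33% and 26.4% over nuclear protein-coding genes.

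Of 17 genes for cytoplasmic partners and processing of the proteins, 0 were past 2-fold of 16 compared in H1299 and 15 in HCC827, with median log2 ratios of -0.20 and 0.06. PTK2B, a kinase that alpha and gamma tails bind, was at 1.17 and 1.93 TPM in H1299 and at 37.8 and 52.3 TPM in HCC827. FYN, a kinase of the Src family, had the opposite order, at 38.9 and 26.6 TPM in H1299 and 5.19 and 4.66 TPM in HCC827. AXIN1, a Wnt pathway scaffold known to bind the PCDHGC3 protein, was at 33.3 and 33.5 TPM in H1299 and 27.8 and 29.7 TPM in HCC827. ADAM10, which sheds the extracellular part of these proteins, had log2 ratios of -0.63 and -0.38. For the line term, limma called 1 of the list higher in HCC827 and 9 higher in H1299, and 2 and 6 over nuclear protein-coding genes. The shares over all genes were 21.4% and 37.4%, and 33% and 26.4% over nuclear protein-coding genes. CYFIP2, called higher in H1299, reached 1 TPM in H1299 alone, so its call supports nothing.

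Among 20 genes near the clusters on 5q31, 18 were compared in H1299 and 17 in HCC827. One, RELL2, was past 2-fold, at 5.07 and 12.3 TPM in H1299 (log2 ratio 1.14) and at 5.08 and 8.68 TPM in HCC827 (0.67). TAF7, a general transcription factor gene that lies between the beta and gamma clusters, was at 149.8 and 123.1 TPM in H1299 and at 83.3 and 82.7 TPM in HCC827. SLC25A2, beside it, was listed at 0 in all 4 libraries. DIAPH1, which follows the gamma cluster, was at 65.0 and 54.8 TPM in H1299 and at 48.0 and 55.2 TPM in HCC827. For the line term, limma called 11 of 18 neighbours higher in H1299 and 0 higher in HCC827, beside 37.4% and 21.4% of all genes. Over nuclear protein-coding genes, 7 were higher in H1299 and 0 in HCC827, beside 26.4% and 33% of all genes. EIF4EBP3, called higher in H1299, reached 1 TPM in H1299 alone, so its call supports nothing.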

How the data were processed

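The authors deposited 1 table of TPM values, with 1 column for each of the 4 libraries. The build is hg19 per the submitters' processing notes. On the aligner, the counter, the strand setting and the depth nothing is given in the sources used here, so counting intervals cannot be had. Of the gene identifiers, 57836 of 58174 (99.4%) are in GENCODE release 29, which served for gene types, shared exons, order and junction sequences on GRCh38. Promoter windows come from RefSeq (GRCh38.p14).

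Ratios are log2(TPM + 1), siCDH3 over siCTR, for genes with at least 1 TPM in at least 1 of a line's 2 libraries, counted from 2-fold. All genes with at least 1 TPM in a library entered a limma fit (limma 3.58.1 under R 4.3.3), with line and siRNA as terms and Benjamini-Hochberg adjustment, after it was tested on simulated data. The labels name the line of each library, which pairs the libraries. The replicates of a line differ in siRNA, and nothing says that libraries came from separate cultures beyond their treatment.

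The members and lists were chosen with earlier results of these data known. Named are up to 12 members of each cluster with the highest level, all members past 2-fold, and up to 4 genes per list with the furthest ratio and 4 with the highest level. Other names, such as PCDHB17P, TNFRSF6B and AC244517.11, and the extended promoter forms and the other scalings of lists and cluster sums, were chosen after the data were seen.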

Additional observations from a re-analysis of the deposited data

How the results depend on the processing

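The main counts of members past 2-fold were 3 higher and 1 lower in H1299 and 2 higher and 2 lower in HCC827. With a pseudocount of 0.1, 2 were lower in H1299 and 4 higher in HCC827. In either direction this was 30% of 20 members in H1299 and 23.3% of 30 in HCC827, beside 7.12% and 5.10% of all genes. With a pseudocount of 5, H1299 had 1 higher (PCDHGA3) and 0 lower, and HCC827 had 0 higher and 0 lower. Of all genes, 0.856% and 0.635% were then past the limit in either direction. With a filter of 5 TPM, HCC827 had 0 higher and 0 lower, but only 2 members were left to compare there. Those called in HCC827 were not among them, so this setting says nothing about them. A 4-fold rule left 1 higher and 0 lower in H1299 and 0 of each in HCC827, and a 1.5-fold rule gave 4 higher in HCC827. All genes past 4-fold in either direction were 0.335% in H1299 and 0.2885% in HCC827, and past 1.5-fold 7.93% in HCC827. TPM recomputed over nuclear protein-coding genes gave 5 higher in HCC827 of 38 compared, PCDHB2 included (log2 ratio 1.06). In either direction 18.4% of members were past the limit there, beside 2.535% of all genes. The log2 ratio of the gamma sum in H1299 was 0.77, and -0.46 without PCDHGA3. Members higher in HCC827 by the limma line term were 13, and 8 with a pseudocount of 5 or 0 with a filter of 5 TPM, which leaves 9 members. No direction of a called member reversed, but only the other scalings could have changed one. Another filter, a variance that follows the mean level and leaving out the siRNA keep the log2 difference itself. A pseudocount keeps the order of the lines, which was the same in both siRNA groups for each called member. The 21 members called had 155 values over 8 alternatives, without those whose filter dropped the member. Of these values, 144 stayed past the threshold and 11 did not. Among the 21, however, 3 reached 1 TPM in H1299 alone and 11 in HCC827 alone, so their kept calls support nothing. Of the members named with a test, calls were lost by PCDHA11 with no filter and by PCDHB2 without the siRNA term. Of the others, PCDHGA6 (adjusted p = 0.089) and PCDHGA7 (0.083) lost theirs with no filter, PCDHGA7 also with a pseudocount of 0.1 (0.051), PCDHA6 with no filter and a pseudocount of 5, and PCDHA1, PCDHA3, PCDHA13 and PCDHB16 with a pseudocount of 5. For the siRNA term, the replicate block is the cell line: 0 members were called with it in every alternative and 0 without it, where 0 genes were called of the 1 with it. Leaving out 1 library leaves no residual degree of freedom, so it was not run. TPM keeps no depth, which leaves unknown how much of a ratio at levels near 1 TPM is counting error.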
